A study of Homo sapiens with 8 samples.

Results

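The response of IL13Rα2-depleted MIV-Luc cells to IL-13 was examined by comparing 2 arrays of knockdown cells treated with the cytokine and 2 arrays of mock-treated knockdown cells, 4 of the 8 arrays of the series. The arrays were chosen by the construct and treatment in the column headings of the expression table. MIV-Luc cells are MCF10CA1a cells that express luciferase. MCF10CA1a is a metastatic derivative of MCF10A breast epithelial cells and is grown with insulin, EGF, hydrocortisone and cholera toxin. Every group carried a pLKO-based puromycin-selected lentiviral hairpin. The knockdown line (shIL13Rα2#2) carried 1 hairpin against IL13Rα2 and the control line a scrambled hairpin (shSCR), so that an effect of this hairpin on other transcripts cannot be told apart from an effect of the depletion. Treated cells were kept for 16 h with IL-13 at 20 ng/ml, and the other cells were mock-treated. The methods describe 2 biological replicates per condition.

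IL-13 is a type 2 cytokine that signals through a receptor built of IL13Rα1 and IL4Rα, whose associated Janus kinases phosphorylate STAT6. Phosphorylated STAT6 enters the nucleus and activates target genes. IL13Rα2 binds IL-13 tightly but lacks the cytoplasmic parts that couple to Janus kinases, and is known as a decoy receptor. In epithelial cells, IL-13 is known for inducing serpins, eotaxins and mucus-related genes, and IL13RA2 is itself an IL-13-induced gene. The comparison asks what IL-13 does to transcripts in cells in which the decoy has been lowered.

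In the knockdown cells 18 genes were called with IL-13, of which 10 rose and 8 fell. A call required a limma adjusted p under 0.05 over all 29141 tested features together with a fold change above 2, and 0.0618% of the features met it, 0.0343% rising and 0.0275% falling. Among the called genes, the 2 clade B serpins SERPINB3 and SERPINB4 rose most, followed by FAP, IL13RA2, ABCC2 and CA2, and CASP14, STC1 and AGR2 fell most. Of the 64 features that differed more than 2-fold, 46 were not called, 17 of them with a symbol. The uncalled features included SERPINB13 at 1.51 and a feature without a symbol at -1.74. The fold changes of the 18 genes ran from 2.05 to 12.9, with standard errors of 0.10 to 0.18 on the log2 scale. In each of the 18 genes the treated arrays did not overlap the mock-treated arrays, a separation that 37.4% of all tested features also showed with 2 arrays against 2. An unadjusted p under 0.05 was reached by 2020 features, 3.96% of all features rising and 2.97% falling, and the median change over all features was 0.02. No gene had an adjusted p under 0.05 without also passing the fold change. Where a bulk value fell, fewer cells of a type and less RNA per cell cannot be told apart.

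**Figure D1:**
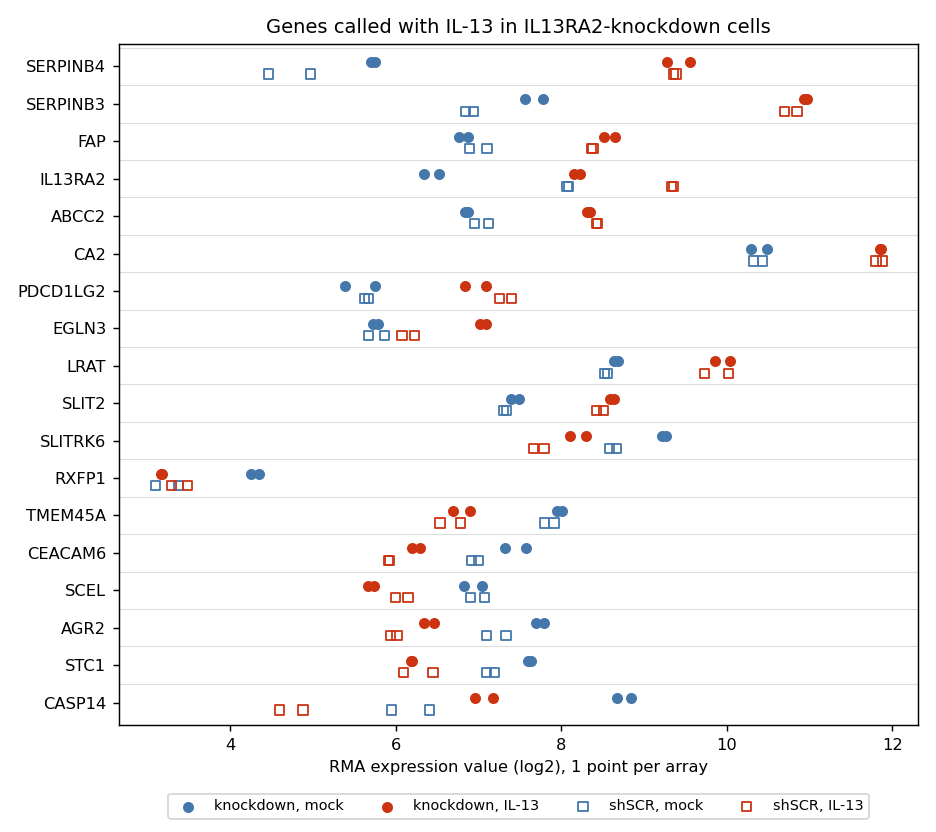
RMA expression values (log2, horizontal axis) of the 18 genes called with IL-13 in the knockdown cells, 1 point per array. Filled circles are knockdown arrays and open squares shSCR arrays, with mock in blue and IL-13 in red. The red and blue circles of the knockdown cells do not overlap in any gene, and RXFP1 is the gene whose shSCR squares overlap.

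All values are log2 RMA expression values, and an array's level is read only against the same gene on other arrays, since probes of different genes bind with different strength. Array medians lay between 5.02 and 5.06, the SD between both arrays of a group had a median over features of 0.100 to 0.105, and the arrays of a group correlated at 0.992 to 0.993 across features, which are not independent replicates. The arrays of a group are called A and B in column order. In the mean of the mock-treated knockdown arrays, the listed markers of basal-like breast epithelium included EPCAM at 12.04, CD44 at 11.22 and KRT5 at 9.84. Others of that list were VIM at 7.91, CDH3 at 7.35 and KRT14 at 6.93. Of the luminal markers, the hormone receptor genes ESR1 and PGR stood at 4.35 and 3.04, the keratin KRT8 at 10.02 and GATA3 at 8.02. Fibroblast markers ranged from LUM at 2.47 and DCN at 2.56 to ACTA2, a smooth muscle actin, at 6.74, and leukocyte markers from PTPRC at 2.40 to CD68 at 6.80.

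IL13RA2, at which the hairpin is aimed, was examined first because it checks the labels. Mock-treated shSCR arrays stood at 8.07 and 8.09, and mock-treated knockdown arrays at 6.52 and 6.34. With IL-13 the knockdown arrays reached 8.23 and 8.15, and the shSCR arrays 9.36 and 9.33. The knockdown arrays lay below the shSCR arrays of the same treatment throughout, and treated knockdown arrays lay next to the mock-treated shSCR arrays. IL-13 raised IL13RA2 in the knockdown cells by 1.76 ± 0.11 (log2 fold change ± SE, limma adjusted p = 0.00264), a 3.38-fold rise. No gene of the signalling receptor was called. IL13RA1, the primary binding chain, read 9.24 and 9.21 with mock and 8.99 and 8.95 with IL-13, a difference of -0.26 that did not pass the test (adjusted p = 0.715). IL4R differed by -0.07 and the common gamma chain IL2RG by 0.07. The kinases JAK1, JAK2 and TYK2 differed by 0.12, 0.14 and 0.01, STAT6 by -0.06 and the feedback inhibitor SOCS1 by 0.10. The sign of TYK2, SOCS1, IL4R and STAT6 depended on which array was left out, and that of TYK2 also on the scaling. IL13RA2 was the 1 gene called among the 24 of the receptor and STAT6 list, whose median change was 0.00.

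SERPINB3 and SERPINB4 encode protease inhibitors of squamous epithelium, known as the squamous cell carcinoma antigens, and lie close together on chromosome 18. Their promoters are shown because both genes led the response and because their sequences are nearly identical. The windows are the 250 bases before each gene's start in RefSeq (GRCh38.p14), read along the gene's strand, and capitals mark the 3 positions at which they differ.
SERPINB3, chr18:63661894-63662143, minus strand: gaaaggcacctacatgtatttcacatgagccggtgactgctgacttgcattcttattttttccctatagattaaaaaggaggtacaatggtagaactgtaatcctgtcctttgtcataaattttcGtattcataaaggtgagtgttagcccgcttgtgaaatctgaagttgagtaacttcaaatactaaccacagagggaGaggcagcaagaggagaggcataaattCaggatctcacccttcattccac
SERPINB4, chr18:63644257-63644506, minus strand: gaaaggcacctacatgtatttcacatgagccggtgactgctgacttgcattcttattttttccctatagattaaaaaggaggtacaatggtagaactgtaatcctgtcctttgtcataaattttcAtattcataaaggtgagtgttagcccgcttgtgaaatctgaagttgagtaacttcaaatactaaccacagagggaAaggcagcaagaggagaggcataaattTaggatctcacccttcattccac
The windows were 98.8% identical. Counted from 1 at the 5′ end, with the SERPINB3 base first, the differences were G126A, G201A and C228T.

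SERPINB3 read 7.56 and 7.78 in mock-treated knockdown cells and 10.93 and 10.97 after IL-13, a log2 rise of 3.28 ± 0.12 (adjusted p = 1.35e-04) or 9.69-fold. SERPINB4 went from 5.70 and 5.74 to 9.55 and 9.28, a log2 rise of 3.69 ± 0.17 (adjusted p = 4.58e-04) or 12.9-fold. These were the largest changes among all tested features, and both genes were called with any 1 array left out. Since the transcripts are near-identical copies, probes may pick up both, and the features cannot be taken as independent. SERPINB13, a related serpin of the same cluster, read 4.12 and 4.01 with mock and 5.85 and 5.31 with IL-13, a difference of 1.51 that did not pass the test (adjusted p = 0.0857).

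Several other genes that rose encode proteins of the cell surface. FAP, a serine protease of the dipeptidyl peptidase family best known from activated fibroblasts, rose from 6.77 and 6.87 to 8.52 and 8.65, by 1.77 ± 0.12 (adjusted p = 0.00343). None of 10 fibroblast markers was called. Their mean log2 value was 4.26 to 4.31 on the mock-treated and 4.26 to 4.27 on the treated arrays, and DCN, LUM and POSTN lay between 2.39 and 2.64 in both means. ABCC2, an efflux pump for organic anions and drug conjugates, rose from 6.87 and 6.83 to 8.35 and 8.31, by 1.48 ± 0.11 (adjusted p = 0.00476). PDCD1LG2, which encodes the PD-1 ligand PD-L2, went from 5.75 and 5.39 to 7.09 and 6.84. The rise was 1.39 ± 0.15 (adjusted p = 0.0343), with the second largest standard error among the rising genes, after SERPINB4.

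The remaining genes that rose code for enzymes and a secreted guidance factor. CA2, a cytosolic carbonic anhydrase, was bright before treatment at 10.30 and 10.48 and reached 11.86 and 11.84, a rise of 1.46 ± 0.11 (adjusted p = 0.00681). LRAT, which esterifies retinol for storage, rose from 8.64 and 8.68 to 9.86 and 10.03, by 1.28 ± 0.13 (adjusted p = 0.0254). EGLN3, a prolyl hydroxylase that marks hypoxia-inducible factors for degradation, rose from 5.79 and 5.73 to 7.01 and 7.09, by 1.29 ± 0.12 (adjusted p = 0.0155). SLIT2, the secreted ligand of Robo receptors, rose from 7.39 and 7.49 to 8.59 and 8.64, by 1.17 ± 0.10 (adjusted p = 0.0153). In all 4 genes both treated arrays lay more than 1 log2 unit above both mock-treated arrays.

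Genes that fell included 2 of 30 listed genes of the cornified envelope and late epidermal differentiation and 2 of 22 listed secretory mucosal genes. Of all tested features, 0.0275% were called falling. The lists were written with earlier results of these data known, which favours such counts. Both lists had a median change of -0.07. CASP14, the caspase of cornifying keratinocytes, fell from 8.67 and 8.84 to 7.17 and 6.96, a log2 change of -1.69 ± 0.18 (adjusted p = 0.0343). SCEL, a precursor of the cornified envelope, fell from 7.04 and 6.82 to 5.74 and 5.66, a change of -1.23 ± 0.13 (adjusted p = 0.0271). AGR2, a protein disulfide isomerase of mucus-secreting cells, fell from 7.79 and 7.70 to 6.46 and 6.34, a change of -1.34 ± 0.12 (adjusted p = 0.0155). CEACAM6, a surface adhesion molecule of the carcinoembryonic antigen family, fell from 7.32 and 7.58 to 6.19 and 6.29, a change of -1.20 ± 0.12 (adjusted p = 0.0254). Its relative CEACAM5, named after its values were seen, read 9.26 and 9.42 with mock and 8.49 and 8.28 with IL-13, without passing the test (-0.96, adjusted p = 0.238).

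The other falling genes have varied roles. STC1, a secreted glycoprotein hormone involved in calcium and phosphate handling, fell from 7.60 and 7.63 to 6.20 and 6.18, a log2 change of -1.42 ± 0.14 (adjusted p = 0.0192). TMEM45A, a transmembrane protein, fell from 7.94 and 8.01 to 6.90 and 6.70, a change of -1.18 ± 0.13 (adjusted p = 0.0358). SLITRK6, a leucine-rich repeat transmembrane protein, fell from 9.26 and 9.21 to 8.30 and 8.11, a change of -1.03 ± 0.12 (adjusted p = 0.0371), the smallest among the 18. RXFP1, the relaxin receptor, fell from 4.34 and 4.25 to 3.18 and 3.17, a change of -1.12 ± 0.13 (adjusted p = 0.0493). RXFP1 was the dimmest of the called genes, with 22.2% of tested features dimmer than its mean over all arrays, and it was no longer tested once the dimmest 30% of features were left out.

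The promoters of the called genes were searched for the letters TTCNNNNGAA, the spacing that STAT6 is known to prefer, which read the same on both strands. RefSeq windows of 250 bases before and 50 after the start were at hand for 13 of the 18 genes. The letters were in the window of 1 of these 13, CEACAM6, against 6.44% of the 35116 promoters of this length, and in 0 of the 6 windows of rising genes. The shorter spacing TTCNNNGAA, searched on both strands and free to overlap the first, was in 1 of 13 (RXFP1) and in 7.66% of all promoters. The CEACAM6 window is shown because it holds the match, marked by capitals, whose first base lies at position -154 from the start.
CEACAM6, chr19:41755280-41755529, plus strand: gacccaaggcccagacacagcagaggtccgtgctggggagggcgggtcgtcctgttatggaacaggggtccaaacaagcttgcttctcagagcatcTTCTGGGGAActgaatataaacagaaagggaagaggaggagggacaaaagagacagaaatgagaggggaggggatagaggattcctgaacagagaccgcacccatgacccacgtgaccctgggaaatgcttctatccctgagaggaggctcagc
The match describes letters in this window and no binding was measured. The windows do not cover enhancers or more distant sequence.

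The gene lists placed the called genes by role, as counts of members beside the 0.0618% of all features called. Of the 28 measured genes of the epithelial type 2 cytokine response, 3 rose (SERPINB3, SERPINB4 and PDCD1LG2), none fell, and the list median was 0.04. Of 16 drug, anion and nucleoside transporters 1 rose (ABCC2), with a median of 0.15. Of 28 surface and extracellular proteases and inhibitors 1 rose (FAP), with a median of -0.02. Among 30 genes of the cornified envelope and late epidermal differentiation 2 fell (CASP14 and SCEL), with a median of -0.07. Among 22 secretory mucosal genes 2 fell (AGR2 and CEACAM6), with a median of -0.07, while the mucin-type glycosyltransferase GCNT3, named after its values were seen, differed by 1.20 without passing the test (adjusted p = 0.187). Of 24 hypoxia and glycolysis genes EGLN3 rose and STC1 fell, and the median was -0.08. In that list 11 members had lower and 3 had higher treated arrays without overlap, against 16.3% and 21.0% of all features. The counts describe these lists and were not tested as sets.

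The remaining lists held no called member. In 26 basal epithelial and p63 genes the median was -0.05, with SERPINB13 as the largest positive difference and CLCA2, a chloride channel accessory protein, at -0.60 (adjusted p = 0.441). In 12 prostaglandin and lipoxygenase enzymes it was -0.02, with the prostaglandin-degrading enzyme HPGD at -0.71 (adjusted p = 0.187) and CYP1B1 at 0.51. In 23 chemokines and inflammatory cytokines it was 0.00, with TNFAIP6 at 1.42 and IL18 at -0.62. TNFAIP6 read 5.71 and 6.74 on its mock-treated arrays, a gap that left its difference short of the threshold (adjusted p = 0.321). In 26 interferon-stimulated genes it was 0.02, and IFIT3 at 0.95 came closest to a call (5.77 and 5.73 with mock, 6.67 and 6.73 with IL-13, adjusted p = 0.0532), with IFI6 at -0.37. In 22 cell cycle genes it was -0.05, between CCNB1 at -0.12 and E2F1 at 0.31. In 21 epithelial-mesenchymal transition genes it was -0.01, with SNAI2 at 0.29 and SPARC at -0.75 (adjusted p = 0.188).

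**Figure D2:**
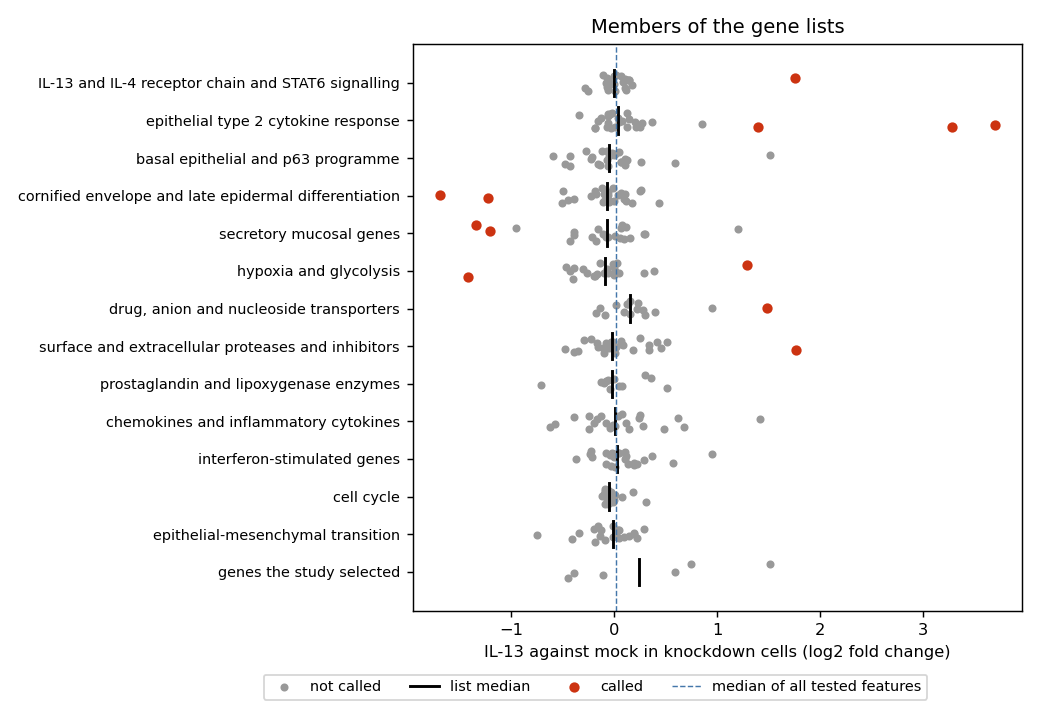
Log2 fold change with IL-13 in the knockdown cells (horizontal axis) of each measured member of 14 gene lists, with called members in red, others in grey, a black bar at the list median and a dashed line at the median of all tested features, 0.02. Vertical scatter within a list has no meaning. List medians lie between -0.08 and 0.24, most members lie close to them, and some grey points, such as GCNT3 at 1.20, lie as far out as called genes.

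Of the 6 genes the study selected from these samples, none was called for IL-13 in the knockdown cells, and the list median was 0.24. The study started from another comparison, treated knockdown against mock-treated shSCR cells, and from the pattern over all 4 groups. It then measured the 6 genes by real-time PCR, and TP63 also by Western blotting. The study further measured TP63 in SUM159 knockdown cells and in MCF10A cells overexpressing IL13Rα2. In MIV cells depleted of STAT6, it reported that IL-13 no longer induced TP63. On the knockdown arrays TP63, the p53-family transcription factor of basal epithelium, read 6.11 and 6.20 with mock and 6.98 and 6.50 with IL-13. Its arrays did not overlap, and the difference of 0.59, with a 95% interval of 0.20 to 0.97, did not pass the test (adjusted p = 0.522). In the knockdown cells CFI, a complement protease, differed by 0.75 (adjusted p = 0.425) and GPX2, a glutathione peroxidase, by -0.44. MLLT3 differed by -0.11 and the chemokine CXCL17 by -0.39. With single arrays left out, TP63 ranged from 0.35 to 0.83, CFI from 0.56 to 0.94, GPX2 from -0.60 to -0.29, MLLT3 from -0.15 to -0.07 and CXCL17 from -0.68 to -0.10. The sixth gene, SERPINB13, is given above. For induced genes, the study looked for a rise with IL-13 and with knockdown alone, and a further rise with both. Without overlap, 3 of the 6 were higher and 3 lower with IL-13 in the knockdown cells. Of all features, 21.0% and 16.3% were so. The lower ones were GPX2, MLLT3 and CXCL17. The study chose these genes on the same arrays, so their directions are not independent evidence.

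Markers of other cell types gave no called gene. The list medians were -0.18 for 10 basal-like epithelial, 0.06 for 10 luminal, -0.01 for 10 fibroblast, 0.01 for 10 leukocyte and -0.09 for 7 endothelial markers. PECAM1, an adhesion molecule of endothelium, was brighter than the rest and stood at 8.82 with mock and 8.21 with IL-13 (-0.61, adjusted p = 0.316), while the features of the other 6 endothelial markers had means of 3.70 to 5.77. Of the 10 basal-like markers, 6 had lower and 1 had higher treated arrays without overlap, against 16.3% and 21.0% of all features. This count was not tested. The higher one was CD44, a hyaluronan receptor, at 0.63 (adjusted p = 0.208), and the intermediate filament gene VIM had the lowest difference at -0.34 (adjusted p = 0.615).

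The shSCR line was compared to ask whether the same genes responded where the decoy receptor had not been lowered. Its IL-13 comparison and that of the knockdown cells share no array, but both come from the same fit over all 8 arrays, so the lists of calls are not independent of each other. There IL-13 called 16 genes and 1 feature without a symbol, 0.0583% of the features, with 13 genes rising and 3 falling. With the feature without a symbol, which rose, 0.048% of the features were called rising and 0.0103% falling. The lines had 12 called genes in common, 66.7% of the knockdown calls and 75.0% of the shSCR calls. These were SERPINB3, SERPINB4, IL13RA2, FAP, ABCC2, CA2, SLIT2, LRAT and PDCD1LG2, which rose, and AGR2, CEACAM6 and TMEM45A, which fell. Of the 18 knockdown calls, 17 had shSCR arrays that separated in the same direction without overlap, the exception being RXFP1, and 36.7% of all features separated there, 18.6% rising and 18.1% falling. The 16 genes called in shSCR cells separated in the same direction in the knockdown cells, where 21.0% of all features rose and 16.3% fell without overlap. Of these 16 genes, 12 were called in both lines. The feature without a symbol rose by 1.28 in shSCR cells and was lower without overlap in knockdown cells (-0.54, adjusted p = 0.471). Across all features the responses of the lines correlated at 0.210 (Pearson), a description over 29141 features that share arrays normalised together.

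A call in 1 line alone does not show a difference between the lines, so the difference itself was tested. No feature passed at an adjusted p under 0.05 (smallest 0.624), while 1304 features, 4.47%, had an unadjusted p under 0.05. Some genes had nearly equal estimates in the lines, with intervals that still allow a difference in either direction. The response of CA2 was 1.46 in both lines, with a difference of 0.00 and a 95% interval of -0.37 to 0.37. ABCC2 differed by 0.09 (-0.26 to 0.44), SLIT2 by 0.03 (-0.31 to 0.36) and TMEM45A by 0.02 (-0.41 to 0.44).

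The log2 rises of SERPINB3 and SERPINB4 were 3.88 and 4.65 in shSCR cells, above those in knockdown cells, and the differences of -0.60 and -0.96 did not pass the test (unadjusted p = 0.00768 and 0.0046, both adjusted p = 0.989). Their treated arrays lay close together in the lines, SERPINB4 at 9.36 and 9.38 in shSCR and 9.55 and 9.28 in knockdown cells. The mock-treated shSCR arrays were lower, at 4.97 and 4.47 for SERPINB4 and 6.94 and 6.84 for SERPINB3. IL13RA2 had the opposite order, with a rise of 1.27 in shSCR and 1.76 in knockdown cells and a difference of 0.49 (0.13 to 0.85, unadjusted p = 0.0134). FAP differed by 0.39 (0.00 to 0.77, unadjusted p = 0.0489). Of the 18 genes, 7 had an unadjusted p under 0.05 for the difference, against 4.47% of all features. The 18 were chosen on their change in knockdown cells, which is part of this difference, so that choice favours the count. The mean change was larger in the knockdown cells in 13 of the 18 genes called there, and larger in the shSCR cells in 9 of the 16 genes called there, and each count is favoured by the choice of genes on that line's own change.

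**Figure D3:**
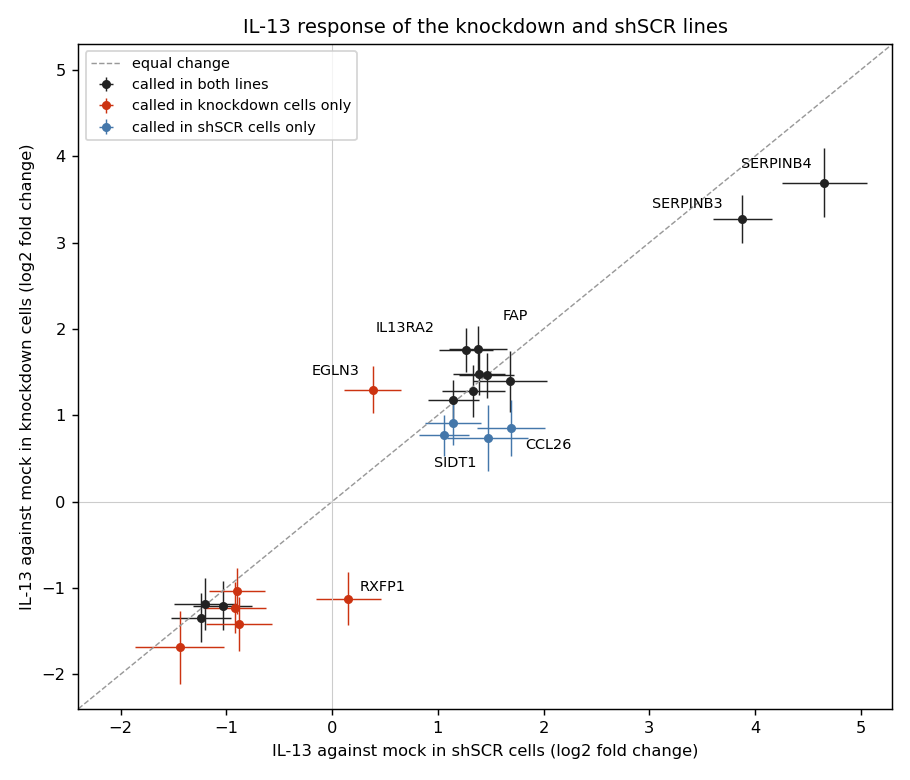
Log2 fold change with IL-13 in shSCR cells (horizontal) and in knockdown cells (vertical) for the 22 genes called in either line, with 95% intervals from limma as bars and the dashed line at equal change. Most genes lie along the line. EGLN3 and RXFP1 lie off it among the genes called in knockdown cells only. CCL26 and SIDT1, called in shSCR cells only, and SERPINB3 and SERPINB4, called in both, lie off it toward a larger change in shSCR cells. No feature's difference passed the adjusted test.

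The 6 genes called in the knockdown cells alone were EGLN3, STC1, SCEL, CASP14, SLITRK6 and RXFP1. EGLN3 read 5.67 and 5.86 with mock and 6.08 and 6.22 with IL-13 in shSCR cells, a difference of 0.38 against 1.29 in the knockdown cells (difference 0.91, 0.53 to 1.29, unadjusted p = 6.25e-04, adjusted p = 0.989). RXFP1 read 3.09 and 3.37 with mock and 3.49 and 3.29 with IL-13 in shSCR cells, close to the treated knockdown arrays. Its difference of -1.28 (-1.71 to -0.85) had the smallest unadjusted p of any named gene, 1.41e-04, and an adjusted p of 0.989. STC1 differed in the same direction in both lines (-0.88 in shSCR cells, difference -0.55, unadjusted p = 0.0218). CASP14, SCEL and SLITRK6 had shSCR differences of -1.44, -0.91 and -0.90 and missed the call there (adjusted p = 0.0685, 0.107 and 0.072). CASP14 in shSCR cells was at 6.41 and 5.94 with mock and 4.59 and 4.88 with IL-13, below the knockdown arrays of the same treatment.

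The 4 genes called in the shSCR cells alone were CCL26, DPYD, SLC26A2 and SIDT1. CCL26, the eotaxin-3 chemokine and a known STAT6 target, read 3.57 and 3.77 with mock and 4.37 and 4.67 with IL-13 in the knockdown cells, a difference of 0.85 ± 0.14 (adjusted p = 0.187). The treated shSCR arrays reached 5.47 and 5.45 from 3.68 and 3.85, and the difference between the lines was -0.84 (-1.30 to -0.38, unadjusted p = 0.00286, adjusted p = 0.989). DPYD, the first enzyme of pyrimidine breakdown, went from 8.49 and 8.48 to 9.23 and 9.28 in the knockdown cells (0.77, adjusted p = 0.085). SLC26A2, a sulfate transporter, went from 6.45 and 6.36 to 7.33 and 7.31 (0.91, adjusted p = 0.0650). SIDT1 read 4.70 and 4.89 with mock and 5.47 and 5.60 with IL-13 (0.74, adjusted p = 0.390). All 4 had both treated knockdown arrays above the mock-treated ones, as 21.0% of all features did.

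Most calls depended on the number of arrays. SERPINB3, SERPINB4 and IL13RA2 were called with any 1 of the 8 arrays left out, IL13RA2 at an adjusted p of up to 0.0498, and FAP in 5 of the 8 cases. Leaving out 1 knockdown array left 3 or 4 of the 18 calls, whichever array it was, and leaving out 1 shSCR array left 10 of them. With limma on the 4 knockdown arrays alone only SERPINB3 and SERPINB4 were called, each with an adjusted p of 0.00546. Among the called genes, the log2 change of IL13RA2 stayed between 1.67 and 1.85 and that of CASP14 between -1.79 and -1.58.

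**Figure D4:**
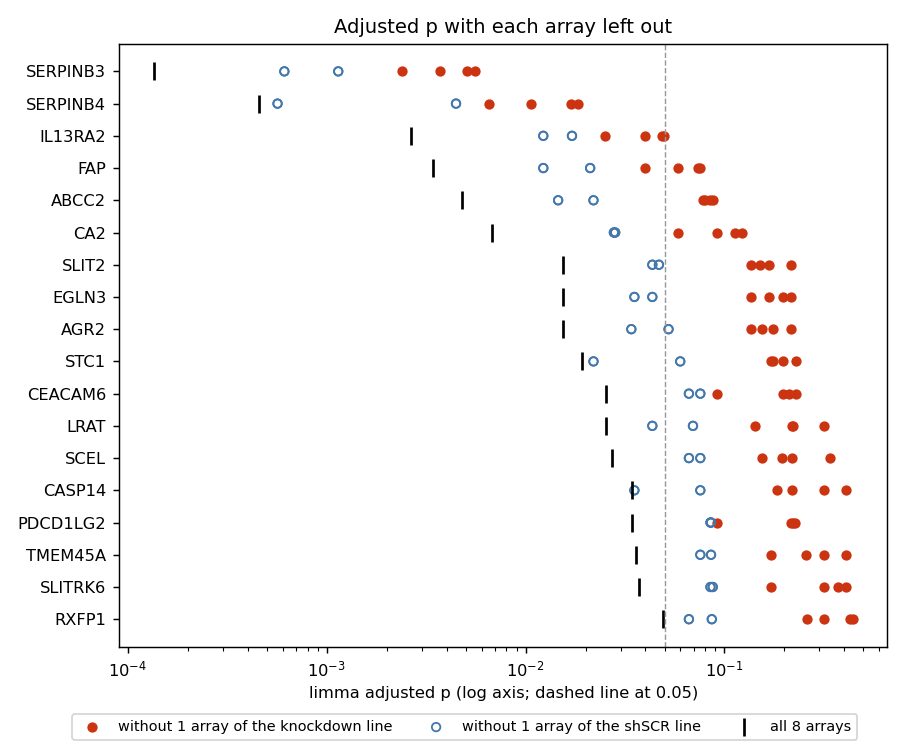
Limma adjusted p (horizontal, log axis) of the 18 called genes with all 8 arrays (black bar) and with each array left out in turn (red circles, 1 knockdown array left out; blue open circles, 1 shSCR array left out), with the dashed line at 0.05. SERPINB3, SERPINB4 and IL13RA2 keep every point to the left of the line, and from ABCC2 downward every red point lies to its right.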

How the data were processed

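Expression was measured with Affymetrix arrays in MIV-Luc cells carrying shSCR or shIL13Rα2#2, with mock treatment or 16 h of IL-13 at 20 ng/ml, in 4 groups of 2 arrays. The authors deposited log2 values made by RMA in Affymetrix Expression Console, a method with background correction, joint quantile normalization and a summary over each gene's probes, so a shift shared by all genes is removed and low signals are compressed. The genome build is not given in the sources used here. Columns were mapped to groups by their headings, which carry no replicate number. The number of arrays limits the precision, and p-values measure the spread between these arrays.

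Tests covered 29141 of 33297 features, after removal of 4156 controls and spike-ins. These named 20193 distinct symbols, of which 17206 were current and 2331 older symbols in RefSeq. A further 7064 features had no symbol, 66 listed more than 1 gene (the first was taken) and 38 had a symbol turned into a date and were not named.

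Group means over all 8 arrays were fitted with limma 3.58.1 (R 4.3.3, 4 residual and 3.86 prior degrees of freedom), because 2 arrays a group leave few degrees of freedom in a single comparison. Contrasts were IL-13 against mock in each line and the difference between these responses. Calls on genes needed an adjusted p (Benjamini-Hochberg) under 0.05 and a fold change above 2, and the difference at the adjusted p alone. The calling procedure was also run on simulated data with independent noise in each feature, a setting simpler than these arrays. That run is not used here as support for the calls. Intervals are 95% intervals of the fit. Alternatives included the methods' one-way analysis of variance, run on the 4 arrays compared. The methods do not name the groups entered, so this grouping was assumed. Other alternatives were limma on 4 arrays or without adjustment, other fold change thresholds, a filter on dim features, further normalization, another variance prior, 1 feature per gene, features without a symbol counted too, and each array left out.

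The genes and gene lists were chosen with earlier results of these data known. Named genes are all called genes, genes called in shSCR cells alone, the 6 genes the study selected, the main receptor and signalling genes, list members with an adjusted p under 0.05 or else the largest rising and falling member, and the 5 symbols with the smallest p for the difference. Exceptions chosen after their values were seen are marked. MUC5AC, CAPN14 and TWIST2 were in the lists and not matched by symbol to a tested feature. 1 result is not reported here.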

Additional observations from a re-analysis of the deposited data

Results flagged for a closer look

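Among the named features, 4 had treated arrays that separated from the mock-treated arrays in opposite directions in the lines, as 1371 of all 29141 tested features did (4.70%). The difference between the lines was tested with limma and passed in none of them. Feature 8154130, which carries no gene symbol, differed by -0.54 in knockdown cells (5.95 and 5.96 with mock, 5.36 and 5.47 with IL-13) and by 1.28 in shSCR cells, where it was called, and the difference of -1.82 had the smallest p of all features (adjusted p = 0.624). LOC91316 differed by 0.74 in knockdown and -0.30 in shSCR cells (adjusted p = 0.989). LOC100130876 differed by 0.33 and -0.60 (adjusted p = 0.989). E2F1, a cell cycle transcription factor, differed by 0.31 and -0.08 (adjusted p = 0.989), and its mock-treated knockdown arrays were at 5.23 and 5.73.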

How the results depend on the processing

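The 18 genes called in the knockdown cells became 2 with limma on the 4 arrays compared (SERPINB3 and SERPINB4), 0 with the methods' test after adjustment, 35 with limma without adjustment, 28 with an intensity trend and robust prior and 3 to 11 when single arrays were left out. The methods' test without adjustment called 27. That test was run here on the 4 arrays compared, a grouping that the methods do not state, so its counts need not be those of the published procedure. The 16 genes called in the shSCR cells became 2, 0 and 28 in the first 3 of these settings and 2 to 10 with each array left out. The 12 list members called in the knockdown cells became 2 and 0 in the first 2 settings and 3 to 8 with arrays left out. IL13RA2 kept its log2 rise of 1.76 but missed the threshold with 4 arrays (adjusted p = 0.0801) and with the methods' test after adjustment (adjusted p = 0.740). It stayed between 1.67 and 1.85 with arrays left out. The difference between the lines had 0 features by limma and 1304 without adjustment. Where an array was left out, the lone array of its group was assumed to vary like the other groups.

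A fold change threshold of 1.5 or none, shifting arrays to one median, further quantile normalization and 1 feature per gene each gave the same 18 genes. Leaving out the dimmest 30% of features lost RXFP1 and added C12orf36. Signs turned only in uncalled genes. TYK2 became -0.00397 after shifting to one median and -0.00212 after quantile normalization. With single arrays left out, TYK2 ranged from -0.228 to 0.243, SOCS1 from -0.0205 to 0.228, IL4R from -0.148 to 0.0150, STAT6 from -0.149 to 0.0304 and ESAM from -0.118 to 0.0410, each turning its sign without 1 of the knockdown arrays or, for TYK2 and SOCS1, either of 2. The cause of these shifts was not tested. No paired analysis was possible because the columns carry no replicate numbers.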

Other observations

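The symbols with the smallest p for the difference between the lines, after RXFP1, LOC91316 and LOC100130876, were ZNF778 and FLJ44838, and neither passed the test. ZNF778, a zinc finger gene, read 4.96 and 5.10 with mock and 4.99 and 4.67 with IL-13 in knockdown cells, and 4.80 and 4.67 with mock and 5.71 and 5.60 with IL-13 in shSCR cells (difference -1.12, unadjusted p = 4.65e-04). FLJ44838 read 2.62 and 2.51 with mock and 3.73 and 3.61 with IL-13 in knockdown cells, and 3.61 and 3.10 with mock and 2.77 and 3.13 with IL-13 in shSCR cells (difference 1.52, unadjusted p = 4.95e-04). FLJ44838 was among the dimmest features named.

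Further list members, named after their values were seen, stood below the threshold in the knockdown cells. The hypoxia-induced genes P4HA1 and BNIP3 differed by -0.47 and -0.43. IL1A, an epithelial alarmin, read 7.66 and 7.69 with mock and 8.29 and 8.40 with IL-13, a difference of 0.67 (adjusted p = 0.238) against 0.12 in shSCR cells. The RNA sensor gene DDX58 differed by 0.57 and the nucleoside transporter SLC28A3 by 0.95 (adjusted p = 0.441).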
